A study of Mus musculus with 20 samples.

Results

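The genes described here are 44 genes of DNA replication and mitosis, out of 45705 genes with deposited values in 20 libraries. They were chosen by gene name, with earlier results of these data known, and fall into 15 members that act in replication and S phase and 29 that act in G2 and mitosis. All 44 were above the filter on low values (at least 1 RPKM in at least 4 libraries). The question asked of them was which of the sorted populations carried transcripts of dividing cells, with the genes of S phase and of mitosis taken apart.

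The libraries came from periventricular tissue of Swiss Webster pups at postnatal day 5, with the pups of a litter pooled, males and females mixed, so that a library is a pool of animals. No allele, transgene or treatment set the groups apart, and every group was defined by flow sorting alone. By the gating scheme of the study, NSC (neural stem cells) were CD140a- NG2- CD133+ CD15+. The 4 progenitors were all NG2+ and CD133-: BNAP/GRP1 was CD140a- CD15+, GRP2/MP3 was CD140a- CD15-, GRP3 was CD140a+ CD15-, and PFMP was CD140a+ CD15+. Each population had 1 library in each of 4 batches, named here by population and batch (NSC 3 is the NSC library of batch 3). Values are RPKM (reads corrected for the gene's length and the library's total), from RNA that was amplified from its polyA tails before the libraries were made.

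Before a cell divides, a ring of MCM proteins is loaded onto replication origins, E2F transcription factors and cyclin E open S phase, and the polymerase clamp PCNA and the enzymes that supply nucleotides carry the copying through. Cyclin A, cyclin B and their kinase CDK1 then drive the cell into mitosis, where Aurora and Polo kinases, centromere proteins and spindle kinesins part the chromosomes and the anaphase-promoting complex ends the division. Genes of S phase are commonly bound by E2F factors near their start, and genes of mitosis by the MuvB complex at a short element called CHR, often with CCAAT boxes beside it. In the subventricular zone, neural stem cells are known as slowly dividing and their transit amplifying descendants as rapidly dividing, while ependymal cells of the ventricle wall have left the cycle.

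Promoter windows from RefSeq (GRCm38.p6, 250 bases before to 50 bases after each annotated start) were found for 36 of the 44 members and searched on both strands for 3 motifs. The E2F motif was any of TTTGGCGC, TTTCGCGC, TTTCCCGC and TTTGCCGC, the CHR was TTTGAA, and the CCAAT box was CCAAT. These letters overlap in places, since TTTCGCGC followed by CAAA also holds GCGCCAAA, the reverse of TTTGGCGC. An E2F motif stood in 5 of 14 windows of S-phase members (35.7%) and in 1 of 25 windows of mitosis members (4%), against 2.26% of all 32851 windows. A CHR stood in 2 of the 14 S-phase windows (14.3%) and in 19 of the 25 mitosis windows (76%), against 17.9% of all. CCAAT was found in 78.6% of S-phase and 88% of mitosis windows, against 37.4% of all windows.

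The stretches below lie before the start of 6 members whose levels carry the results that follow, with E2F, CHR and CCAAT letters of either strand in capitals. They are Mcm5 (chr8:75109349-75109508, plus strand), Mcm2 (chr6:88898781-88898940, minus strand), Mki67 (chr7:135716380-135716539, minus strand), Cdk1 (chr10:69352939-69353072, minus strand), Top2a (chr11:99024190-99024349, minus strand) and Cdc20 (chr4:118437353-118437503, minus strand).
Mcm5: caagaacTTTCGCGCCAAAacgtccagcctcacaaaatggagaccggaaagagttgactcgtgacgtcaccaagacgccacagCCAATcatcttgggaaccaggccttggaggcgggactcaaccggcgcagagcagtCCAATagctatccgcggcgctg
Mcm2: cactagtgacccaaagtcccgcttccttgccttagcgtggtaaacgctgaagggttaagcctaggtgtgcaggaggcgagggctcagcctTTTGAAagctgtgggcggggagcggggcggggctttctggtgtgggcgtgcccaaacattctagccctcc
Mki67: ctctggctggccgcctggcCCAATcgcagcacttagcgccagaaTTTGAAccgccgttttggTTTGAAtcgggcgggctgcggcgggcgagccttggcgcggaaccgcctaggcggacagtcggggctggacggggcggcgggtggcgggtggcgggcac
Cdk1: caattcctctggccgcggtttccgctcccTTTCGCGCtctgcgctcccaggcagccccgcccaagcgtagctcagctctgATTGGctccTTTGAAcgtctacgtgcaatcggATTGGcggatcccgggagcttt
Top2a: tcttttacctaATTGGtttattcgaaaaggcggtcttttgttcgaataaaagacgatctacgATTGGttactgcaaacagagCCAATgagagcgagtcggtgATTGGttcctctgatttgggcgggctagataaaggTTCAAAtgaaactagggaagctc
Cdc20: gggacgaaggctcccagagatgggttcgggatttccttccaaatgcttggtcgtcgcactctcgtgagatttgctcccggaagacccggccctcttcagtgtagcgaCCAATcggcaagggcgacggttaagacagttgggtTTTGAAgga
Mcm5 carried 2 overlapping E2F motifs and 2 CCAAT boxes here, and Mki67 2 CHR elements and 1 CCAAT box. Cdk1 was the mitosis member that held an E2F motif as well as a CHR.

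Batch 3 stood apart before any comparison was made. Its 5 libraries, NSC included, had summed RPKM of 228440 to 252653 for 7 erythroid genes and of 919 to 1043 for 8 lung epithelium genes, against at most 26515 and 88.4 in the other batches. Most of the lung epithelium sum was Scgb1a1 (839 to 965 RPKM in batch 3), followed by Napsa (62.5 to 75.6 RPKM). Nkx2-1 and Slc34a2 of that list went the other way. They were at most 0.153 and 0.126 RPKM in batch 3, against 21.3 and 10.9 RPKM in BNAP/GRP1 4. Pdgfra, the gene of CD140a, was at 96.9 to 803 RPKM in GRP3 and PFMP of batches 1, 2 and 4 and at 3.41 and 3.84 RPKM in batch 3. Cspg4, the gene of NG2, was under 1 RPKM in BNAP/GRP1 of batches 1 to 3 despite the NG2+ gate. Prom1, the gene of CD133, was highest in NSC in batches 1, 2 and 3, but in batch 4 lay at 9.56 RPKM in NSC and between 11.2 and 35.5 RPKM in the progenitors. The 6 ependymal markers summed to between 1509 and 15189 RPKM in the 4 NSC libraries and to between 1.73 and 542 in the 16 progenitor libraries. Batch 4 held unlike libraries. NSC, BNAP/GRP1, GRP2/MP3 and GRP3 of batch 4 had between 37856 and 39689 genes above 0 and median values of 0.977 to 8.3 RPKM over all genes, whereas PFMP 4 had 24102 genes above 0 and a median of 0.00791 RPKM. In the other batches the highest were 31999 genes and 0.237 RPKM. BNAP/GRP1 4 was the shallowest library, at 0.0395 of the depth of BNAP/GRP1 1 as read from the steps of low values, and BNAP/GRP1 3 the deepest, at 1.41. The absolute number of reads in a library is unknown. For 25 members all 20 values were whole multiples of a single step, which gave the smallest numbers of reads that they can stand for. These numbers cover counting error only, since reads of amplified RNA are not independent molecules.

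The S-phase members as a set stood higher in progenitors than in NSC in batches 1 and 2 and level with NSC in batches 3 and 4. Their mean log2(RPKM + 1) in NSC 1 to 4 was 3.19, 2.74, 2.73 and 3.65. BNAP/GRP1 had 4.79, 3.83, 2.67 and 3.59, and GRP2/MP3 had 3.25, 5.15, 2.71 and 3.73. GRP3 had 4.35, 4.42, 2.67 and 3.81, and PFMP had 4.08, 4.20, 2.68 and 3.80. In batches 1 and 2 every progenitor library thus lay above the NSC library, by little in GRP2/MP3 1 and by most in GRP2/MP3 2. In batch 3 the 5 libraries spanned only 2.67 to 2.73, and in batch 4, whose libraries were unlike each other in depth and in genes detected, only 3.59 to 3.81. Over all 4 batches NSC averaged 3.08 ± 0.44, BNAP/GRP1 3.72 ± 0.87, GRP2/MP3 3.71 ± 1.05, GRP3 3.81 ± 0.81 and PFMP 3.69 ± 0.69 (SD, n = 4), and the ranges of NSC and of each progenitor overlapped.

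The mitosis members followed batch even more closely. NSC 1 to 4 had means of 3.48, 3.23, 2.07 and 2.95, and BNAP/GRP1 had 4.38, 3.50, 1.52 and 3.52. GRP2/MP3 had 3.06, 4.71, 1.42 and 3.62, GRP3 had 3.99, 3.87, 1.53 and 3.50, and PFMP had 3.69, 3.86, 1.51 and 3.80. NSC was lowest of the 5 populations in batches 2 and 4, next to lowest in batch 1 and highest in batch 3. The mitosis mean lay above the S-phase mean only in NSC 1 (by 0.29) and NSC 2 (by 0.49), while the 8 progenitor libraries of those batches had differences of -0.55 to -0.19. Batch 3 kept that order at a lower level, with -0.66 in NSC and -1.29 to -1.14 in the progenitors, and batch 4 turned it, with -0.70 in NSC and -0.31 to 0 in the progenitors.

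**Figure D1:**
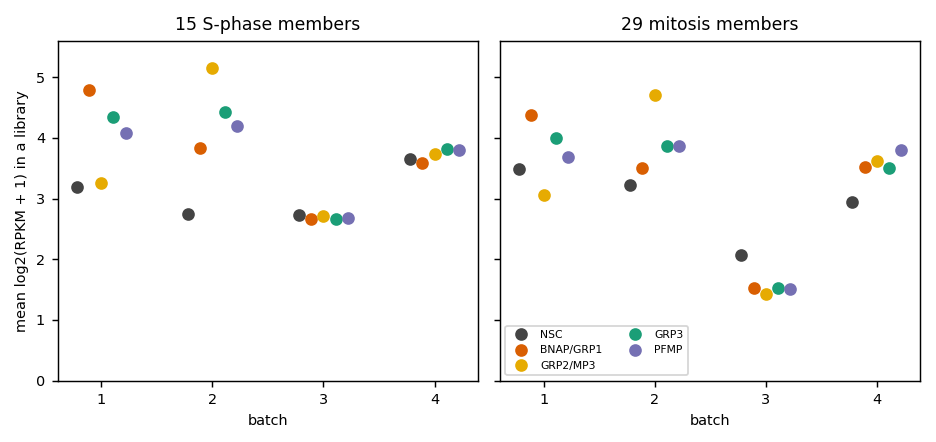
Mean log2(RPKM + 1) of the 15 S-phase members (left) and the 29 mitosis members (right), a point for each library, by batch (horizontal axis) and population (color). The 5 libraries of batch 3 lie together at 2.67 to 2.73 for S-phase members, and the NSC library of batches 1 and 2 lies below every progenitor library in the left panel.

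Batch set more of the members' spread than population did. The median member of the S-phase group had 54% of its sum of squares on the log2 scale between batches and 10.2% between populations, the median mitosis member 70.5% and 5.15%, and the median of all genes tested 43.9% and 14.3%. Mki67, the gene of the Ki-67 antigen that coats chromosomes in cycling cells, was the member with the largest share between populations (53%, with 12.5% between batches). Mcm5, a subunit of the replicative helicase, came next (43.4% and 28.1%), then its partner Mcm2 (32.3% and 15.2%). At the other end was Ccne2, a cyclin E, with 91.3% between batches. Ube2c, a ubiquitin-conjugating enzyme that works with the anaphase-promoting complex, had 89.8% between batches, and Cdk1 had 87.7%.

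**Figure D2:**
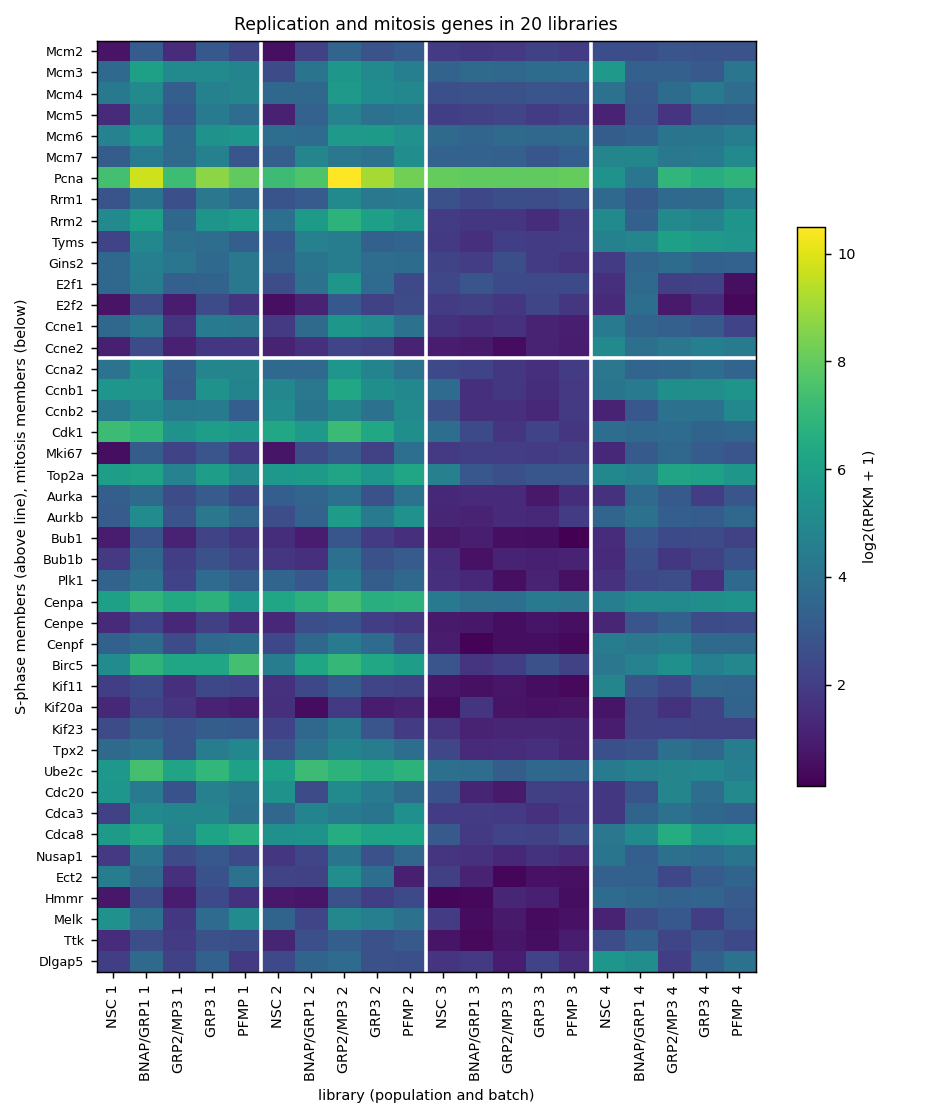
Values of the 44 members (rows, S-phase members above the white line and mitosis members below it) in the 20 libraries (columns, grouped by batch), as log2(RPKM + 1). The 5 columns of batch 3 are alike and dark for most mitosis members, and Mcm2, Mcm5 and Mki67 are dark in NSC 1 and NSC 2.

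No member differed between any progenitor and NSC at an adjusted p under 0.05 in limma, where BNAP/GRP1 had calls for 0.76% of the 27614 genes tested, GRP2/MP3 for 1.12%, GRP3 for 1.05% and PFMP for 1.14%. All but 3 calls in GRP3 and 1 in PFMP were lower than in NSC. At an unadjusted p under 0.05, the same 2 members, Mcm5 and Mki67, were higher in each progenitor and none was lower. That is 4.55% of the 44 members in each comparison, against 5.9%, 5.79%, 5.62% and 5.88% of all genes in either direction. Of all 27614 genes, 517, 241, 348 and 219 were higher and 1112, 1359, 1204 and 1404 lower. The share of members was thus near the background of both directions. For higher genes alone it was above that of all genes, but it rested on 2 members. The 4 comparisons share the NSC libraries. In the same order of progenitors (BNAP/GRP1 first, PFMP last), differences above 0 were counted for 14, 14, 15 and 13 of the 15 S-phase members. Their median log2 differences were 0.46, 0.51, 0.64 and 0.52. Of the 29 mitosis members, 22, 19, 19 and 20 had differences above 0, with medians of 0.41, 0.39, 0.40 and 0.27. The S-phase median in BNAP/GRP1 was 0.06 without BNAP/GRP1 1 and 1.02 without BNAP/GRP1 3, and that in GRP2/MP3 was 0.09 without GRP2/MP3 2. The mitosis median was -0.02 in BNAP/GRP1 without BNAP/GRP1 1 and -0.12 in GRP2/MP3 without GRP2/MP3 2. Over all genes tested the medians were 0.38, -0.08, 0.05 and -0.20, so that in BNAP/GRP1 the members' medians lay close to that of all genes. Under quantile normalization, which brings the median of all genes in BNAP/GRP1 to 0.03, the S-phase median there was 0.18 with 8 of 15 members above 0. The median of all genes in BNAP/GRP1 was 0 in batches 1 to 3 and 1.53 in batch 4. Many genes were near 0 RPKM in those 3 batches, where the NSC and BNAP/GRP1 libraries had medians of 0 to 0.21 RPKM. A median difference of 0 therefore does not show that those libraries were level. Without batch 4 it was -0.04, with an S-phase median of 0.88 (15 of 15 above 0) and a mitosis median of 0.34.

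Without batch 3 the S-phase medians were 0.53, 0.69, 0.88 and 0.81 and the mitosis medians 0.56, 0.62, 0.56 and 0.61, and again no member was called. Without batch 3 and with the batch as a replicate block, Mcm5 was called higher in GRP3 and PFMP, the only member calls. Higher genes made up 0.308%, 0.585%, 0.604% and 0.454% of all genes tested in that fit in the same order. With the replicate block and all batches, 0 members were called in limma, where 2.09%, 3.08%, 2.6% and 2.79% of all genes were. When libraries were weighted by how well they fitted their population, with weights of 0.0636 (BNAP/GRP1 4) to 10.2 (GRP3 1), BNAP/GRP1 had 5 members called higher, GRP2/MP3 had 1, GRP3 had 6 and PFMP had 1. These were 11.4%, 2.27%, 13.6% and 2.27% of the members, against 9.5%, 6.97%, 17.7% and 5.23% of all genes in either direction. No member was called lower, so these shares of members and of all genes are not like for like. Mki67 was called in all 4 of these weighted comparisons, E2f2, Mcm2, Mcm3 and Mcm5 in BNAP/GRP1 and GRP3, and Rrm1 in GRP3.

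**Figure D3:**
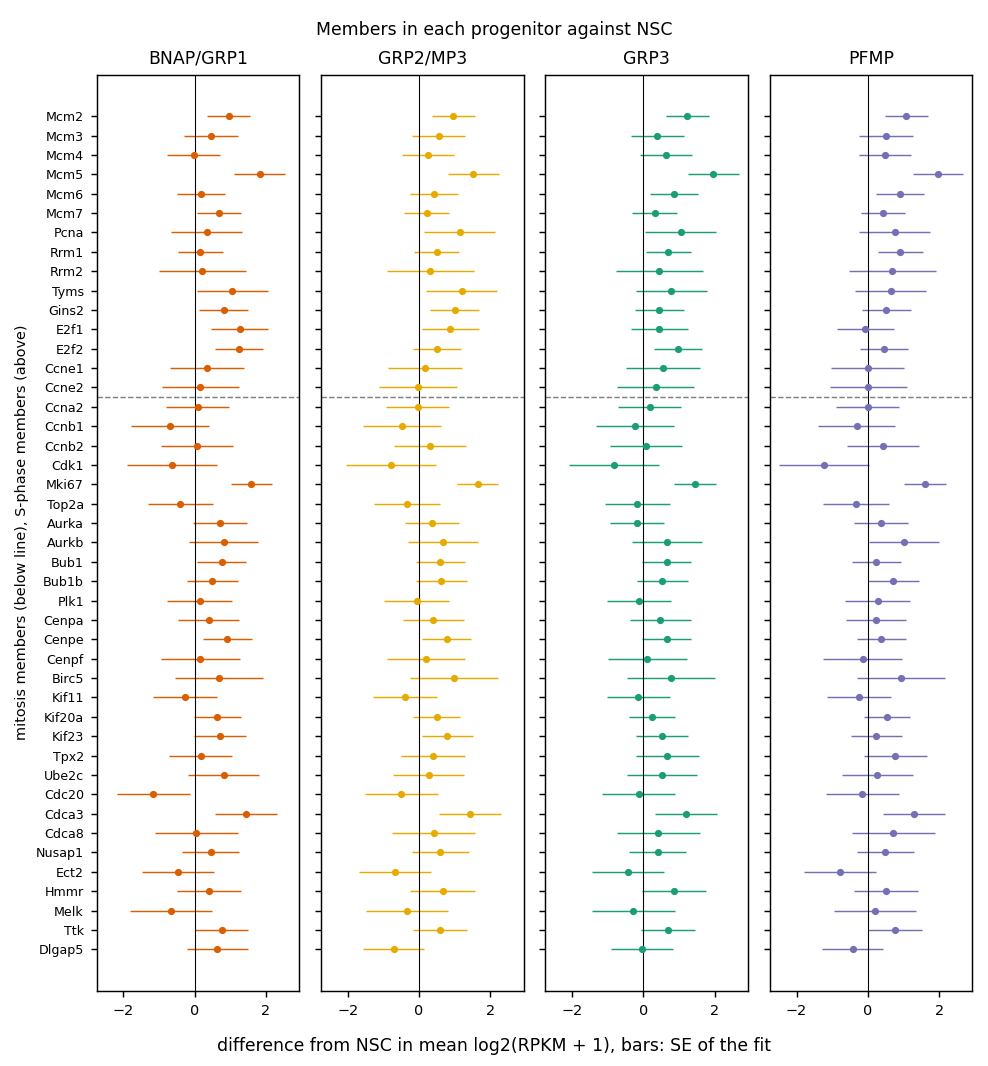
Difference of each progenitor from NSC in mean log2(RPKM + 1) (horizontal axis) for the 44 members (rows), with bars of 1 SE from the fit across all libraries. Mcm5 lies at 1.52 to 1.96 and Mki67 at 1.44 to 1.64 in the 4 panels, and most other bars reach or cross 0.

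Among the subunits of the MCM helicase, Mcm5 (chr8:75109569-75128439, plus strand, GRCm38) had the largest difference between progenitors and NSC. Mcm5 stood at 1.55, 1.12, 3.17 and 1.17 RPKM in NSC 1 to 4, at 21.5, 9.55, 3.44 and 6.25 RPKM in BNAP/GRP1, and at 6.79, 25.3, 3.83 and 2.32 RPKM in GRP2/MP3. It stood at 20.1, 15.2, 2.82 and 7.44 RPKM in GRP3 and at 13.4, 17.1, 3.73 and 8.15 RPKM in PFMP. NSC was the lowest library of its batch in batches 1, 2 and 4, and in batch 3 it lay above GRP3 alone, so 15 of the 16 comparisons within a batch had the progenitor higher. Here and below, the comparisons of a batch share its NSC library, so the 16 are not independent. The NSC values rested on 70, 117, 668 and 53 reads, and the progenitor values on 71 (BNAP/GRP1 4) to 6173 (BNAP/GRP1 1). NSC averaged 1.75 ± 0.964 RPKM, BNAP/GRP1 10.2 ± 7.93, GRP2/MP3 9.56 ± 10.7, GRP3 11.4 ± 7.73 and PFMP 10.6 ± 5.85 (SD, n = 4). The log2 differences from NSC were 1.82, 1.52, 1.96 and 1.96 (SE 0.71 each), with adjusted p of 0.595, 0.821, 0.43 and 0.388 in limma. Without batch 3 and with the replicate block they were 2.40, 1.95, 2.65 and 2.56 (SE 0.65), with adjusted p of 0.0741, 0.151, 0.0357 and 0.0431, while over all alternatives the adjusted p ran from 0.00043 to 1 in GRP3 and from 0.0431 to 1 in PFMP.

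Mcm2 was at 0.607, 0.465, 2.95 and 5.07 RPKM in NSC 1 to 4. It was at 7.82, 3.31, 2.46 and 5.10 in BNAP/GRP1, 1.71, 10.3, 2.62 and 6.22 in GRP2/MP3, 6.96, 5.84, 3.48 and 5.92 in GRP3, and 3.85, 7.69, 2.89 and 5.81 RPKM in PFMP. NSC was far below the progenitors in batches 1 and 2 (27 and 48 reads), within their range in batch 3 and just below it in batch 4. The log2 differences were 0.96, 0.96, 1.23 and 1.08 (SE 0.60 each). The other 4 subunits were less apart. Mcm4 had the smallest difference of the S-phase members in BNAP/GRP1 (-0.03, SE 0.73, lower in 1 of 4 batches), and Mcm7 that in GRP3 (0.31, SE 0.62). Median levels of Mcm3, Mcm4, Mcm6 and Mcm7 in NSC were 10.8, 12.8, 13.0 and 9.12 RPKM, against 14.2 to 22.3, 9.20 to 22.2, 11.4 to 31.0 and 14.8 to 23.6 RPKM in the progenitors.

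Pcna, the clamp of the replicative polymerases, was the most abundant S-phase member per length. It was at 168, 151, 263 and 42.7 RPKM in NSC 1 to 4, at 846, 198, 248 and 17.3 in BNAP/GRP1, and at 155, 1443, 252 and 122 RPKM in GRP2/MP3. It was at 415, 539.7, 248 and 94.3 RPKM in GRP3 and at 249.8, 311, 262 and 114 RPKM in PFMP. Progenitors were above NSC in batch 2, below it in batch 3 and mixed in the other batches, and GRP2/MP3 2 held 1443 RPKM alone. The log2 differences were 0.34, 1.14, 1.04 and 0.75, with an SE of 1.00 each.

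The enzymes that supply nucleotides had different patterns. Tyms, which makes thymidylate, was at 3.72, 6.61, 2.71 and 24.8 RPKM in NSC 1 to 4, at 30.3, 23.6, 1.93 and 27.4 in BNAP/GRP1, and at 14.6, 21.1, 3.14 and 63.7 RPKM in GRP2/MP3. It was at 13.2, 9.09, 2.87 and 52.3 RPKM in GRP3 and at 8.71, 10.2, 3.00 and 45.0 RPKM in PFMP. Only BNAP/GRP1 3 lay below the NSC library of its batch, so 15 of 16 comparisons within a batch had the progenitor higher, with log2 differences of 1.06, 1.19, 0.78 and 0.64. Rrm2, the regulated subunit of ribonucleotide reductase, was at 31.6, 14.1, 2.77 and 32.9 RPKM in NSC and at 61.2, 53.5, 2.44 and 8.74 RPKM in BNAP/GRP1. It was at 11.4, 113, 2.38 and 30.7 RPKM in GRP2/MP3, 44.2, 62.0, 1.82 and 25.9 in GRP3, and 54.5, 43.8, 2.77 and 43.8 in PFMP. Rrm2 was higher than NSC in 8 of the 16 comparisons and lower in 8, and in batch 3 its 5 libraries lay between 1.82 and 2.77 RPKM. Its partner Rrm1 had median levels of 6.02 RPKM in NSC and 7.38 to 16.6 RPKM in the progenitors.

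Of the factors that open S phase, E2f1 was at 10.9, 4.90, 3.98 and 1.83 RPKM in NSC 1 to 4 and at 22.2, 14.9, 6.22 and 11.6 RPKM in BNAP/GRP1, which was higher in all 4 batches. It was at 8.86, 48.0, 4.47 and 3.20 RPKM in GRP2/MP3, 9.62, 12.5, 4.30 and 3.46 in GRP3, and 18.1, 4.24, 4.48 and 0.476 in PFMP. The log2 differences were 1.27, 0.87, 0.44 and -0.07, the last being the lowest of the S-phase members in PFMP (SE 0.8). Its paralog E2f2 had a median of 1.07 RPKM in NSC and of 3.94, 1.65, 3.61 and 2.28 RPKM in the progenitors. Gins2, a subunit of the GINS complex that joins the helicase to the fork, had medians of 5.96 RPKM in NSC and 10.4 to 15 RPKM in the progenitors, and was higher in 13 of 16 comparisons. Ccne2 was at 1.07, 1.16, 0.958 and 33.3 RPKM in NSC, with 14.4 to 23.1 RPKM in the progenitors of batch 4 and 0.387 to 4.68 RPKM in those of the other batches. It set batch 4 apart in all 5 populations, and its difference in GRP2/MP3 (-0.03, SE 1.08) was the lowest of the S-phase members there. Ccne1 had medians of 6.85 RPKM in NSC and 5.6 to 13.8 RPKM in the progenitors.

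Mki67 (chr7:135689784-135716361, minus strand) was the only member that was higher than NSC in all 16 comparisons within a batch. It was at 0.436, 0.640, 2.66 and 1.44 RPKM in NSC 1 to 4, at 8.06, 4.64, 3.1 and 7.25 in BNAP/GRP1, and at 3.77, 7.16, 3.06 and 11.4 RPKM in GRP2/MP3. It was at 6.32, 3.52, 2.88 and 7.83 RPKM in GRP3 and at 2.75, 14.1, 3.29 and 6.21 RPKM in PFMP. NSC was lowest in every batch, and the highest NSC value, of batch 3, lay just under the lowest progenitor value, so NSC did not overlap any progenitor. In batch 3 the gap was small, with 2.66 RPKM in NSC and 2.88 to 3.29 RPKM in the progenitors. The share of all genes with NSC lowest in every batch was not counted, so this order has no background to be set against. NSC values rested on 61, 208, 1736 and 202 reads, and those of the progenitors on 255 to 7177. NSC averaged 1.29 ± 1.01 RPKM, BNAP/GRP1 5.76 ± 2.30, GRP2/MP3 6.36 ± 3.83, GRP3 5.14 ± 2.34 and PFMP 6.60 ± 5.25 (SD, n = 4), with the order among the progenitors well within their spread. The log2 differences were 1.59, 1.64, 1.44 and 1.60 (SE 0.58 each), and the adjusted p in limma were 0.503, 0.353, 0.599 and 0.39. Without batch 3 and with the replicate block they were 2.07, 2.13, 1.89 and 2.05 (SE 0.65), with adjusted p of 0.13, 0.105, 0.181 and 0.126 in limma. The lowest adjusted p of Mki67 over all alternatives was 0.00335, 0.0283, 0.00259 and 0.0298 and the highest 0.99 to 1, by limma.

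The kinase and cyclins that drive entry into mitosis did not share that order. Cdk1 (chr10:69335146-69352938, minus strand) was at 148, 77.3, 13.5 and 13.5 RPKM in NSC 1 to 4, at 118, 51.1, 4.46 and 11.7 in BNAP/GRP1, and at 43.3, 146, 2.25 and 12.5 RPKM in GRP2/MP3. It was at 60.3, 79.8, 3.59 and 9.97 RPKM in GRP3 and at 49.9, 38.4, 2.35 and 11 RPKM in PFMP. NSC was the highest library in batches 1, 3 and 4, and only GRP2/MP3 2 and GRP3 2 lay above the NSC library of their batch. The log2 differences were -0.63, -0.78, -0.82 and -1.23 (SE 1.26 each, adjusted p of 0.887 to 1 in limma), the lowest among mitosis members in GRP2/MP3, GRP3 and PFMP. In batches 1 and 2 the NSC libraries with 61 and 208 reads of Mki67 held 4057 and 4933 reads of Cdk1.

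Ccnb1, the cyclin that activates CDK1, was at 46.9, 29, 12.4 and 17.0 RPKM in NSC 1 to 4 and at 45.5, 18.3, 1.84 and 19.8 RPKM in BNAP/GRP1. It was at 7.51, 80.3, 2.49 and 38.1 RPKM in GRP2/MP3, 42.1, 37.7, 1.76 and 37.4 in GRP3, and 27.0, 30.3, 2.58 and 43.9 in PFMP. NSC was highest in batches 1 and 3 and lowest in batch 4. Cdc20, the activator of the anaphase-promoting complex, had the lowest difference of the mitosis members in BNAP/GRP1 (-1.16, SE 1.02). It was at 46.0, 41.4, 5.64 and 2.53 RPKM in NSC and at 19.6, 4.62, 1.31 and 6.11 RPKM in BNAP/GRP1, so NSC was higher in batches 1 to 3 and lower in batch 4. Top2a, the topoisomerase that untangles sister chromatids, was at 58.1, 48.7, 24.0 and 30.0 RPKM in NSC and at 67.6, 53.7, 6.60 and 25.7 RPKM in BNAP/GRP1. It was at 25.2, 71.8, 5.35 and 71.6 RPKM in GRP2/MP3, 59.1, 46.9, 6.48 and 64.9 in GRP3, and 33.0, 74.4, 6.29 and 48.4 in PFMP. Progenitors were higher in 8 of 16 comparisons and lower in 8, with the widest gap in batch 3, where NSC had 24.0 RPKM and no progenitor over 6.60.

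**Figure D4:**
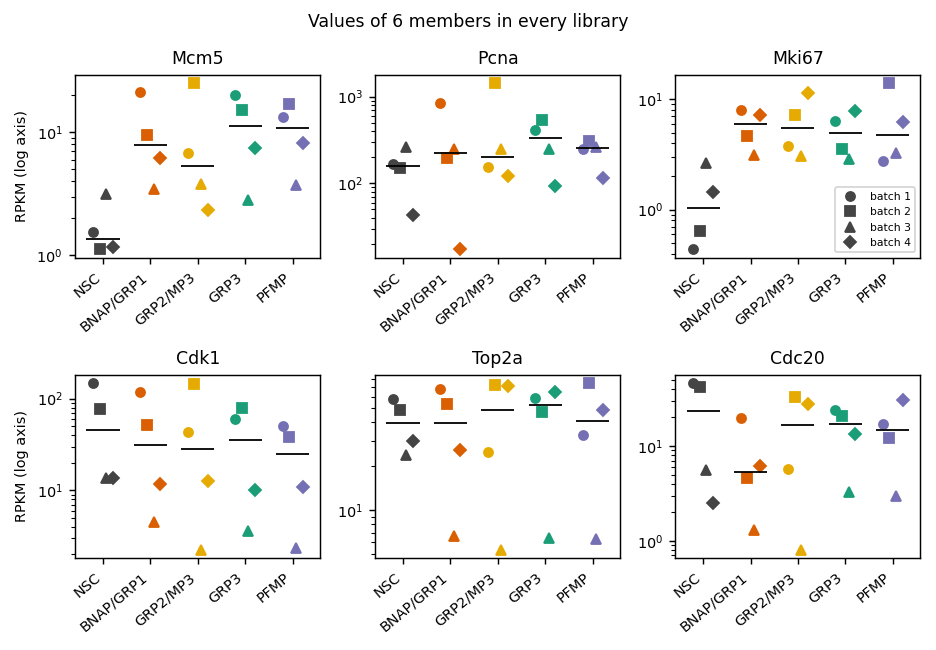
RPKM (log axes) of Mcm5, Pcna, Mki67, Cdk1, Top2a and Cdc20 in each library, by population, with a symbol for each batch and a line at the median of the 4 libraries. Mki67 is lowest in NSC in every batch and Mcm5 in batches 1, 2 and 4, whereas Cdk1 of NSC is the highest of its batch in batches 1, 3 and 4.

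A ratio of a pair of genes inside a library does not depend on how that library was scaled, and such ratios were looked at after the values had been seen. Cdk1 over Mki67, in RPKM, was 339, 121, 5.10 and 9.35 in NSC 1 to 4. The highest ratio of a progenitor was 18.2 in batch 1, 22.7 in batch 2, 1.44 in batch 3 and 1.77 in batch 4, so NSC was above all 4 progenitors in each batch. Top2a over Mki67 was 133, 76.0, 9.04 and 20.9 in NSC, against at most 12, 13.3, 2.25 and 8.29 in the progenitors of the same batch. Ccnb1 over Mki67, at 107.5, 45.3, 4.68 and 11.8 in NSC, was above the progenitors of its batch as well. All of these ratios divide by Mki67, which was lowest in NSC in every batch, so they are not separate observations. Among the helicase subunits, Mcm4 over Mcm2 was 31.2 and 23.4 in NSC 1 and 2, against at most 7.12 and 6.04 in the progenitors of those batches, but 1.78 and 2.90 in NSC 3 and 4, within the range of theirs. The 6 ependymal markers were all at 1 RPKM or more in each NSC library. Foxj1, the master regulator of motile cilia, was at 141, 352, 34.3 and 33.1 RPKM there and at no more than 9.42 RPKM in a progenitor library, and the part of these markers' cells in the ratios was not tested. In such sorted bulk samples, fewer cells of a kind and less RNA per cell cannot be told apart.

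**Figure D5:**
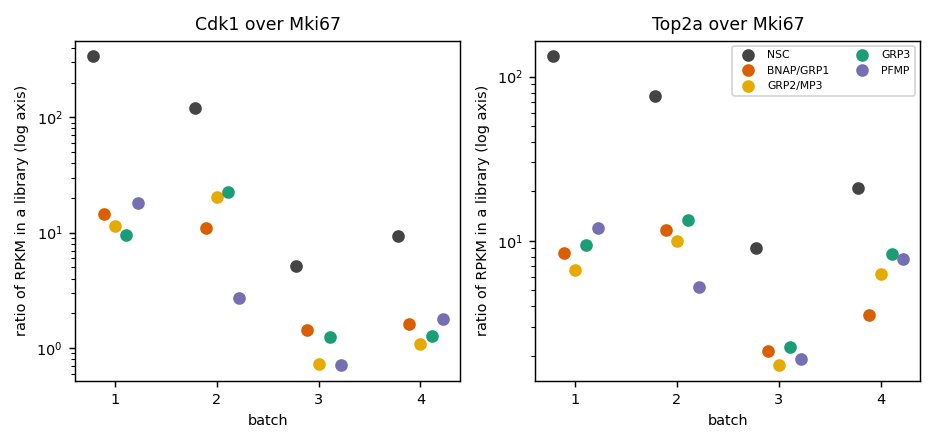
Ratio of the RPKM of Cdk1 (left) and Top2a (right) to that of Mki67 inside each library, on log axes, by batch and population (color). The NSC point is the highest of its batch in both panels, at 339 and 133 in batch 1.

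Among the Aurora and Polo kinases, Aurkb was at 7.52, 5.01, 1.37 and 10.4 RPKM in NSC 1 to 4 and at 33.8, 9.52, 1.25 and 14.7 RPKM in BNAP/GRP1. It was at 5.82, 54.8, 1.54 and 8.2 RPKM in GRP2/MP3, 18.0, 19.7, 1.51 and 7.84 in GRP3, and 10.6, 40.6, 2.81 and 11.4 in PFMP, where all 4 batches had PFMP higher. Its log2 differences were 0.81, 0.67, 0.67 and 1.01. Plk1, the Polo-like kinase, was at 9.78, 10.4, 1.89 and 2.01 RPKM in NSC and at 14.7, 6.76, 1.42 and 4.29 RPKM in BNAP/GRP1. It was at 3.67, 20.3, 0.476 and 5.0 RPKM in GRP2/MP3, 12.4, 8.04, 1.20 and 1.87 in GRP3, and 8.50, 11.5, 0.490 and 11.8 in PFMP. Its differences, 0.14, -0.07, -0.12 and 0.27, had no common direction. Aurka had medians of 5.21 RPKM in NSC and 4.24 to 11.1 RPKM in the progenitors.

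The survivin gene Birc5, whose product guides Aurora B, was at 34.2, 21.1, 6.28 and 17.8 RPKM in NSC 1 to 4 and at 115, 72.5, 2.26 and 25.2 RPKM in BNAP/GRP1. It was at 74.3, 128, 3.09 and 38.9 RPKM in GRP2/MP3, 72.6, 77.7, 5.55 and 23.2 in GRP3, and 167, 59.4, 3.44 and 29.5 in PFMP. NSC was lowest in batches 1, 2 and 4 and highest in batch 3. Ube2c was at 48.9, 61.3, 14.4 and 20.1 RPKM in NSC and at 173, 149.6, 13.3 and 24.3 RPKM in BNAP/GRP1. It was at 72.3, 114, 7.94 and 27.3 RPKM in GRP2/MP3, 127, 88.6, 11 and 30.4 in GRP3, and 64.7, 112, 10.5 and 23.1 in PFMP. It had the same pattern as Birc5: lowest in NSC in batches 1, 2 and 4 and highest there in batch 3. Cdca3, which marks Wee1 for destruction, had the next largest differences after Mki67 among the mitosis members in all 4 progenitors (1.45, 1.44, 1.18 and 1.29), with a median of 3.22 RPKM in NSC and of 12.1 to 18.6 RPKM in the progenitors.

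At the kinetochore, Cenpf was at 9.0, 4.21, 0.914 and 21.8 RPKM in NSC 1 to 4 and at 12.7, 11, 0.153 and 17.7 RPKM in BNAP/GRP1. It was at 4.84, 20.1, 0.424 and 21.3 RPKM in GRP2/MP3, 11.6, 12.4, 0.415 and 12 in GRP3, and 13.8, 4.96, 0.282 and 12.1 in PFMP. In batch 3 no library reached 1 RPKM, and elsewhere NSC lay within or close to the range of the progenitors. Cenpa, the centromeric histone, had medians of 43.4 RPKM in NSC and 46.5 to 71.4 RPKM in the progenitors, and the motor Cenpe had 1.43 and 2.05 to 4.38 RPKM. The checkpoint kinases Bub1, Bub1b and Ttk had medians of 1.28, 2.07 and 1.51 RPKM in NSC, below the 2.20 to 3.50, 2.84 to 4.78 and 3.41 to 5.48 RPKM of the progenitors. The kinesin Kif23 had a median of 2.93 RPKM in NSC and of 3.04 to 5.92 RPKM in the progenitors. Kif11, the kinesin that keeps spindle poles apart, had a lower median in NSC (2.6 RPKM) than in the progenitors (2.96 to 4.33 RPKM) but a higher mean (8.29 against 3.49 to 4.76 RPKM), with 27.3 RPKM in NSC 4. Its log2 differences from NSC were -0.27, -0.39, -0.14 and -0.25, and progenitors were higher in 7 of 16 comparisons within a batch. Ect2, which places the division furrow, was lower than in NSC in 12 of 16 comparisons, as was Cdc20.

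Within batches, the count of members for which NSC was the lowest of the 5 libraries changed with the batch. For S-phase members it was 7 of 15 in batch 1, 13 in batch 2, 3 in batch 3 and 5 in batch 4. For mitosis members it was 10 of 29, 15, 3 and 17. Over all genes tested NSC was lowest for 21.1%, 14.6%, 14% and 13.5%. NSC was the highest library for 0, 0, 5 and 3 S-phase members and for 5, 2, 21 and 7 mitosis members, against 20.4%, 20.1%, 29.1% and 11.8% of all genes. In batch 3 those 21 included Cdk1, Top2a, Ccnb1, Ccnb2, Plk1, Birc5 and Ube2c, and Mki67 was among the 3 that were lowest.

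The members higher than NSC in all 4 batches were 5 of 44 (11.4%) in each progenitor, against 9.35%, 4.76%, 8.31% and 5.75% of all genes, in the order used above. These were E2f1, E2f2, Mcm5, Aurka and Mki67 in BNAP/GRP1, and Gins2, Mcm5, Tyms, Kif20a and Mki67 in GRP2/MP3. In GRP3 they were E2f2, Mcm2, Mcm4, Tyms and Mki67, and in PFMP Mcm5, Rrm1, Tyms, Aurkb and Mki67. Lower in all 4 batches was Cdk1 in BNAP/GRP1 and PFMP (2.27% of members), where 7.68% and 12.3% of all genes were lower, and no member in GRP2/MP3 and GRP3, where 12% and 9.07% of all genes were.

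Batch by batch, the median log2 difference of the S-phase members from NSC in BNAP/GRP1 was 1.33, 1.43, -0.12 and 0.01 in batches 1 to 4. It was 0.04, 2.44, -0.05 and -0.03 in GRP2/MP3, 1.30, 1.61, -0.09 and 0.19 in GRP3, and 0.77, 1.57, -0.01 and 0.26 in PFMP. For mitosis members BNAP/GRP1 had 0.85, 0.29, -0.32 and 0.53, GRP2/MP3 had -0.15, 1.44, -0.49 and 1.00, GRP3 had 0.73, 0.68, -0.39 and 0.72, and PFMP had 0.40, 0.52, -0.48 and 0.90. The S-phase medians were thus above 0 in batches 1 and 2 and near 0 in the other 2, and the mitosis medians were below 0 in batch 3 for all 4 progenitors. In batch 4 the median of all genes was itself not near 0 in BNAP/GRP1 (1.53), GRP2/MP3 (-0.29) and PFMP (-0.88), and 0.11 in GRP3.

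Between the progenitors, no member was called by CD140a or CD15. GRP3 and PFMP (CD140a+) against BNAP/GRP1 and GRP2/MP3 (CD140a-) gave 0 members at an adjusted p under 0.05 in limma and 0 at an unadjusted p under 0.05, where 0% and 4.41% of all genes were called. With the replicate block, without batch 3 and with the replicate block, and with library weights, 1.44%, 3.2% and 9.06% of all genes were called and still 0 members in limma, with 1 member lower at an unadjusted p under 0.05 under the replicate block. The S-phase median was 0.11, the mitosis median 0.02 and the median of all genes -0.22. The largest differences were those of Mcm6 (0.60, SE 0.47) and E2f1 (-0.89, SE 0.56) among S-phase members and of Cdc20 (0.69, SE 0.72) and Aurka (-0.46, SE 0.53) among mitosis members, each of which had the same sign in all 4 batches. Mcm2, Mcm4 and Rrm1 were also higher and Gins2 and Cdk1 lower with CD140a in all 4 batches. The share of all genes with the same sign in all 4 batches was not counted for this contrast. These members therefore have no background to be set against. Outside batch 3, the 10 microglial markers summed to 126 to 8613 RPKM in the CD140a- libraries and to 14 to 132 RPKM in the CD140a+ libraries. The 8 markers of oligodendrocyte precursors summed to 20.5 to 158 and 359 to 3584 RPKM. In batch 3 all 5 libraries had 2499 to 2802 RPKM of the former and at most 15.7 RPKM of the latter. Their part in the differences between these populations was not tested.

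BNAP/GRP1 and PFMP (CD15+) against GRP2/MP3 and GRP3 (CD15-) again gave 0 members at an adjusted p under 0.05 in limma and 0 at an unadjusted p under 0.05, where 0% and 0.297% of all genes were called. Those 3 alternatives called 0% of all genes here, and 0 members. The medians were -0.07 for S-phase members, -0.03 for mitosis members and 0.09 for all genes. The largest differences were those of Mcm7 (0.30, SE 0.44) and Pcna (-0.54, SE 0.7) and of Dlgap5 (0.48, SE 0.61) and Cdc20 (-0.34, SE 0.72). The standard errors of the members ran from 0.41 to 0.89 in both contrasts, so a difference of 1 log2 unit lay within 2 SE of 0 for many of them.

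The other genes of the pathway, 55 of replication and 76 of mitosis that had values, were taken from fixed lists. None was called in the 4 comparisons with NSC. At an unadjusted p under 0.05, limma had 2, 0, 1 and 0 replication genes and 5, 3, 2 and 2 mitosis genes, in the order of progenitors used above. The background was 5.9%, 5.79%, 5.62% and 5.88% of all genes, in either direction. Of the replication genes, 1 was higher and 1 lower in BNAP/GRP1, and that in GRP3 was higher. Of the mitosis genes, 3 were higher and 2 lower in BNAP/GRP1, and all those in the other progenitors were lower. The replication genes had differences above 0 for 43, 45, 45 and 43 genes, with medians of 0.49, 0.40, 0.57 and 0.46, and the mitosis genes for 61, 55, 57 and 52 genes, with medians of 0.40, 0.32, 0.42 and 0.21. The largest differences among replication genes were those of Tk1, thymidine kinase, in BNAP/GRP1 (2.23, SE 0.92) and GRP2/MP3 (1.54), of the origin kinase Cdc7 in GRP3 (2.10) and PFMP (1.82), of Gins4 in BNAP/GRP1 (-2.14, SE 0.71), GRP2/MP3 (-0.95) and GRP3 (-1.09), and of E2f7 in PFMP (-1.44). Among mitosis genes they were those of Psrc1 in BNAP/GRP1 (1.74) and GRP2/MP3 (1.26), Cdc25c in GRP3 (1.22) and Ncapd2 in PFMP (1.54), and of Pttg1 in BNAP/GRP1 (-3.06), GRP3 (-2.97) and PFMP (-2.91) and Ckap5 in GRP2/MP3 (-2.31).

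With the replicate block, 3, 3, 2 and 1 of these 76 mitosis genes were called lower than in NSC, in the order of progenitors used above. Of all 27614 genes tested, 558, 803, 643 and 720 were called lower in that fit. The calls among mitosis genes were thus few and not far from the background. Pttg1, the gene of securin, which restrains the separation of sister chromatids until anaphase, was called in all 4 progenitors (adjusted p = 0.0027, 0.0302, 0.00299 and 0.00343 in limma). Pttg1 was at 158.5, 318, 67.6 and 1047 RPKM in NSC 1 to 4, at 27.1, 40, 14.3 and 42.2 in BNAP/GRP1, and at 37.7, 31.3, 16.5 and 383 RPKM in GRP2/MP3. It was at 16.3, 13.7, 18.3 and 194 RPKM in GRP3 and at 16.4, 15.6, 16.4 and 225 RPKM in PFMP, so NSC was the highest library of each batch. Ckap5, a microtubule polymerase, was called lower in BNAP/GRP1, GRP2/MP3 and GRP3 and Cenpp in BNAP/GRP1 and GRP2/MP3. Tk1 and Psrc1 were called higher, both in BNAP/GRP1 (adjusted p = 0.0273 and 0.0444 in limma), where 18 of all 27614 genes were. The NSC library thus had the highest Pttg1 and the lowest Mki67 of its batch in all 4 batches. The share of all genes with either pattern was not counted.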

How the data were processed

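The authors deposited RPKM values per gene, reads scaled by gene length and by a library's read total, for 20 libraries. Per the study's methods and processing notes, the tools were FastQC 0.11.9 for read quality, cutadapt 3.4 for trimming, STAR 2.6.1 for alignment (GRCm38) and Salmon 1.9.0 for quantification, and the study's own tests used DESeq2 1.26.0. The annotation release, gene lengths and read totals are not given in the sources used here. Populations and batches were taken from the sample labels, and the gates from the study's gating scheme. The study describes the 4 libraries of a population as independent experiments, with the pups of each litter pooled.

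Values were transformed to log2(RPKM + 1), a scale that understates changes of low genes. Genes were kept that reached 1 RPKM in 4 or more of the 20 libraries (27614 genes). The same rule kept 26663 genes without batch 3 and 18236 without batch 4, so many genes passed only with batch 4. With these genes, limma 3.58.1 in R 4.3.3 was fitted with all 5 populations, a trended prior and no batch term. The test is two-sided, with Benjamini-Hochberg adjustment over all genes tested and a threshold of 0.05. The fit was tested on simulated data with independent noise and no batch effect, so that test does not cover libraries of a batch that deviate together. Reads were recovered where every value of a gene was a whole multiple of a step, within 0.05.

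Libraries of a batch deviated together (median correlation of deviations from the population means 0.433 within batches and -0.204 between, lowest within 0.0341), and the labels name the batches, so the alternative with the batch as replicate block is a paired fit. Other alternatives were the pseudocount (0.1), no filter, a stricter filter (mean of 5 RPKM), median-of-ratios and quantile scaling, a prior without a trend, library weights, batch 3 or 4 left out, and each of 20 libraries left out.

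Members and lists were chosen with earlier results of these data known. Values in every library are given for 16 members and any member past the threshold, with the largest difference either way per role and comparison, and the other members are given by medians and counts. Other pathway genes are given by counts and medians, with the largest difference either way named. Cdca3 and the pathway genes called under the replicate block were named after their values were seen.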

Additional observations from a re-analysis of the deposited data

Results flagged for a closer look

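In 90 groups of 4 libraries (16 members and 2 means over members, in 5 populations), the highest or lowest library lay far from the other 3 in 9, where the rule used would pick out about 1 in 20 by chance. GRP2/MP3 2 was far above the other GRP2/MP3 libraries in Pcna (1442.9 RPKM), E2f1 (48.0 RPKM) and Aurkb (54.8 RPKM). The batch 4 library was far above the others in Ccne2 in NSC (33.3 RPKM), GRP3 (23.1 RPKM) and PFMP (20.7 RPKM). The batch 3 library was far below the others in Ccnb1 (1.76 RPKM) and Cenpf (0.415 RPKM) in GRP3, and in the mean log2(RPKM + 1) of the mitosis members in PFMP (1.51). No member moved one way in every batch of one comparison with NSC and the other way in every batch of another.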

How the results depend on the processing

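The replicate block left 0 members called in every comparison. With library weights BNAP/GRP1 had 5 member calls, GRP2/MP3 had 1, GRP3 had 6 and PFMP had 1, and leaving out batch 3 with the replicate block gave 1 in GRP3 and 1 in PFMP. The other alternatives gave none. Calls over all genes in these 4 comparisons were 210, 308, 290 and 316 as reported, 576, 851, 719 and 771 with the replicate block, and 2622, 1924, 4885 and 1443 with library weights. In the CD140a contrast they were 0, 398 with the replicate block, 852 without batch 3 and with it, and 2501 with library weights. Mcm5 stayed above 0 under every alternative, between 0.92 (GRP2/MP3) and 2.88 (GRP3), and Mki67 between 1.14 (BNAP/GRP1) and 2.31 (GRP2/MP3). With single libraries left out, BNAP/GRP1 had an S-phase median of 0.06 (without BNAP/GRP1 1) to 1.02 (without BNAP/GRP1 3) and a mitosis median of -0.02 to 0.97. The S-phase median ran from 0.09 (without GRP2/MP3 2) to 0.82 (without GRP2/MP3 3) in GRP2/MP3, from 0.39 (without NSC 3) to 1.08 (without GRP3 3) in GRP3, and from 0.35 (without NSC 3) to 0.92 (without PFMP 3) in PFMP. The mitosis median ran from -0.12 (without GRP2/MP3 2) to 0.98 (without GRP2/MP3 3), from 0.05 (without GRP3 1) to 0.90 (without GRP3 3) and from 0 (without PFMP 2) to 0.83 (without PFMP 3) in the same progenitors. With library weights the S-phase medians were 1.15, 0.88, 1.31 and 0.81. The CD140a contrast had an S-phase median of 0.37 under quantile scaling and of -0.15 (without GRP2/MP3 3) to 0.38 (without GRP2/MP3 2) with a library left out, and a mitosis median of -0.10 with library weights and of -0.30 to 0.25 with those libraries left out. Signs turned for members near 0. Mcm4 in BNAP/GRP1 was 0.28 without batch 4, 0.82 with library weights and -0.52 to 0.27 with a library left out. Ccne2 in GRP2/MP3 was 0.02 under median-of-ratios scaling, 0.12 under quantile scaling and without batch 3 (with the replicate block too), 0.24 without batch 4, 0.48 with library weights and -0.77 to 0.98 with a library left out. E2f1 in PFMP was 0.32 under quantile scaling, 0.22 without batch 4 and -0.69 to 0.54 with a library left out. Dlgap5 in the CD15 contrast was -0.01 without batch 4. With a library left out, Cdk1 ranged from -1.36 to 0.12 in BNAP/GRP1 and from -1.67 to 0.17 in GRP2/MP3, the positive values without the batch 3 library of that population, and Pcna in BNAP/GRP1 from -0.44 to 1.40. The cause was not tested. The absolute depth is unknown, which limits what can be said of low values.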
